A study of Mus musculus with 14 samples.

Results

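Very large genes that lie over common fragile sites were examined in single-cell genome coverage of a mouse melanoma model. Of 9 such genes, the 8 described are Il1rapl1, Dmd, Fhit, Wwox, Lrp1b, Macrod2, Csmd1 and Immp2l, the other is counted but not described, and 231 genes of at least 500 kb could be tested in the same way. Il1rapl1 was selected on its coverage, because a bin inside it was very low in the cultured line against leukocytes of naive mice, and earlier results had already shown that bin in the sorted classes. Its values at that bin are therefore given as a description, with no test. The others were listed as known fragile-site genes, with earlier results of these data known.

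Common fragile sites are regions that tend to break when DNA replication is slowed. Many of them lie inside exceptionally long genes, where origins are sparse and where a long transcription unit can still be active when replication arrives. Deletions inside these genes are frequent in cancer cell lines, often within introns and often leaving the neighbouring DNA in place. Fragility itself was not measured here, and the coverage bins, with a median width of 539 kb, show only losses and gains of that order of size.

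The series asked which genome is carried by candidate hybrids of tumor cells and leukocytes. Female C57BL/6J mice aged 6 to 8 weeks, with no transgene in their labels, were injected with fluorescently marked B16F10 cells, a C57BL/6J melanoma line, and received no drug. From blood and lung of these mice, 539 single cells in 9 samples were sorted as circulating tumor cells (CTC, 43 cells in 5 samples), white blood cells (WBC, 46 cells in 6 samples) or a class named DP (450 cells in 9 samples). Controls were 22 cells of the B16F10 culture, grown without a host, and cells labelled as coming from treatment-naive C57BL/6J females of the same age, namely 21 WBC, 18 CDP, 24 Duplike and 24 PltLike cells. The labels do not spell out DP, CDP, Duplike or PltLike, and each control class is 1 sample. Nothing in the labels says that the 9 samples are separate animals, so p-values measure only the spread between these samples.

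Each genome was amplified by MALBAC, a looping whole-genome amplification, and the deposited values are a normalised coverage signal per bin and cell. Read counts are not part of these values, so the depth is unknown. The bin-to-bin noise, the median absolute log2 step between neighbouring bins, stands in for precision and ran from 0.153 to 0.294 per cell. Every coverage level below was divided by the cell's own median over autosomal bins, so that 1 is the autosomal level of that cell. Log2 differences against the flanks were taken on the deposited signal without this division. The deposited autosomal medians fell near 5 levels. WBC lay at the lowest level and CTC and the culture at the next, and the 450 DP cells split into 177 at the level of WBC (host level), 219 at that of CTC (line level), 38 at raised levels above it and 16 at the highest. These levels are not explained in the sources used here. The PltLike, CDP and Duplike cells carry naive labels, but their coverage at Il1rapl1 lay below that of naive WBC, as given below, and no class comparison rests on them.

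The values of most cells stop at 10, the ceiling of the deposited scale, which a host-level cell meets at a higher multiple of its median than a line-level cell does. Of 4714 bins, 338 stood at the ceiling in at least 1% of cells. Such bins lie in the gene or among its 6 flanking bins for Il1rapl1, Dmd, Lrp1b and Immp2l. The main results of these 4 genes are given with and without them. Differences over the whole of Il1rapl1 that involve DP cells keep these bins. Fhit, Wwox, Macrod2 and Csmd1 have none.

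The 9 genes were 0.913 to 2.39 Mb long and covered 35 bins. The starts of 2 of them lie in or beside bins that turned out low, and RefSeq promoter windows (GRCm38.p6) are shown for these, since they place the annotated starts against the low bins. Promoter windows were found for 5 of the 9 genes, in 8 windows, and none for Wwox, Lrp1b and Csmd1. The 250 bases before each start are printed 5′ to 3′ on the gene's strand, with CG dinucleotides in capitals.
Il1rapl1, chrX:88115949-88116198, minus strand: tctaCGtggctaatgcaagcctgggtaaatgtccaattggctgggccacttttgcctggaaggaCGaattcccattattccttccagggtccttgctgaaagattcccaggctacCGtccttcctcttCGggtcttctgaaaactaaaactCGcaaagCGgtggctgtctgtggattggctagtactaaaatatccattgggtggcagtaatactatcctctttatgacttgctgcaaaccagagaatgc
Fhit upstream start, chr14:11162036-11162285, minus strand: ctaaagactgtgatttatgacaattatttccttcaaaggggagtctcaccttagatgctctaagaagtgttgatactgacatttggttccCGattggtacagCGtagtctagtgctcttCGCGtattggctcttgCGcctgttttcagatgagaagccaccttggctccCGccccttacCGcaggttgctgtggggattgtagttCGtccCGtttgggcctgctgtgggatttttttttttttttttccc
Fhit downstream start, chr14:10453459-10453708, minus strand: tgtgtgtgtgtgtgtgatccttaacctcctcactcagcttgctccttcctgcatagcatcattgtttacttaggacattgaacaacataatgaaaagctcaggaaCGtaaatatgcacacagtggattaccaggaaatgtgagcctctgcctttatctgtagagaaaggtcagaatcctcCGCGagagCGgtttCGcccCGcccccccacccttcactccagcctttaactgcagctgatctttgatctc
The Il1rapl1 window holds 6 CG and so does the downstream Fhit window, which equals the median of 6 CG per 250 bases over 32851 windows, while the upstream Fhit window holds 9. Both strands read the same for CG, and 92.1% of all windows hold at least 1. The upstream Fhit start and the Il1rapl1 start lie outside the lowest bins of their genes, and the downstream Fhit start lies inside a low one. By contrast, the Immp2l window holds 24 CG and the Macrod2 windows 30 and 29.

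Il1rapl1 encodes a synaptic adhesion protein of the interleukin-1 receptor family and lies on X from 86740937 to 88115948. Of its 3 bins, the first stood near its flank in the tumor genome, the second was far below it, and the third was between them. The second bin (chrX:87239364-87785367), which lies wholly inside the gene, stood at 0.0998 of the autosomal median in the culture, with its 22 cells between 0.0632 and 0.151. In CTC the sample means were 0.179 in C1L, 0.201 in C1N, 0.157 in C1R, 0.127 in C2R and 0.173 in C3R. In WBC of these samples they were 0.942, 0.961, 1.06, 0.990 and 1.11 in the same order. The groups did not overlap, and the highest of 43 CTC (0.249) lay below the lowest of 46 WBC (0.780).

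The flanks tell a drop inside the gene from the lower level of the X chromosome. The 3 bins after the gene stood at 0.586, 0.579 and 0.537 in CTC, against 1.08, 1.11 and 1.04 in WBC. The first bin of the gene stood at 0.463 in CTC and 0.864 in WBC, and the third at 0.361 and 1.07. X was thus lower over the whole window in CTC, and within that the second bin fell to a median of 0.275 of its flanks after division by naive WBC (range 0.109 to 0.421), against 1.01 in WBC. The third bin, where the annotated start lies, was not the basis for picking the gene but adjoins the bin that was. It was lower in CTC than in WBC by a log2 difference of -0.71 (SE 0.0381) against the flanks, in 5 of 5 samples. This too is given as a description, with no test. Ceiling bins were left out of these flanks, so those before the gene take in bins of Dmd. Relative to the autosomal median, CTC differed from WBC by -0.58 and -0.78 in these Dmd bins, and by -0.95 in the nearest flank. The first bin of Il1rapl1 differed by -0.04 against the flanks (limma, adjusted p = 0.607 over 545 bins, of which 7.52% were called lower and 6.79% higher).

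**Figure D1:**
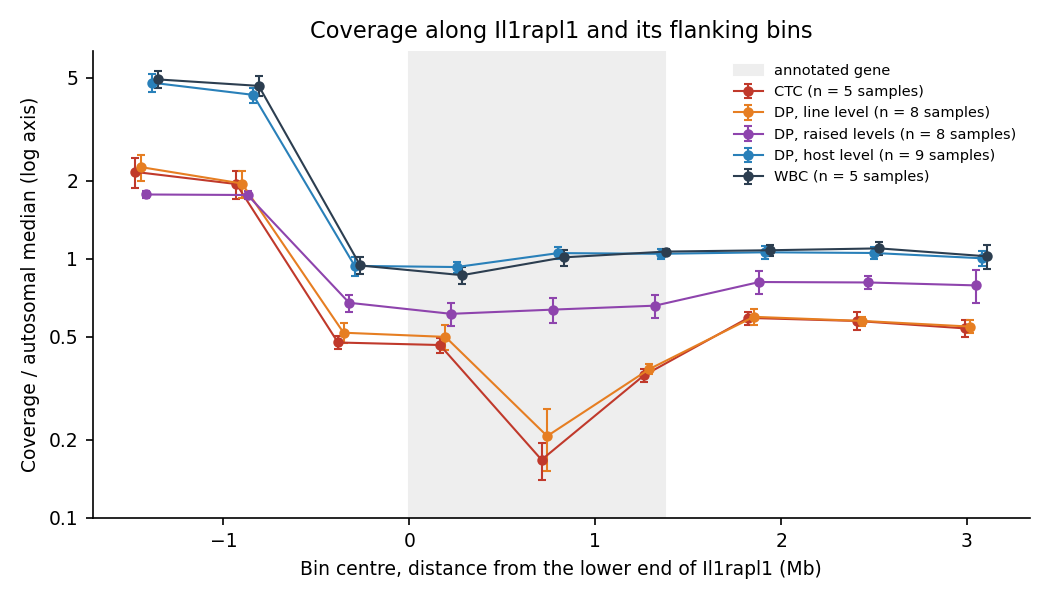
Mean coverage relative to the autosomal median (log axis) in the 3 bins of Il1rapl1 and 3 flanking bins on each side, by distance of the bin centre from the lower end of the gene, with points for the mean over samples and bars for the SD. CTC and line-level DP cells reach 0.168 and 0.207 in the second bin while their flanks after the gene stay above 0.5, raised-level DP cells lie near 0.6 to 0.8, and WBC and host-level DP cells stay near 1, apart from the first 2 flanking bins, which are at the ceiling in many cells.

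The low bin was found in every cell of the culture. A cell was counted as having a focal drop where a bin of the gene was at or below 0.5 of the median of its flanks, with each bin first divided by its naive WBC median and ceiling bins left out. By this count 22 of 22 culture cells (Clopper-Pearson 95% interval 84.6 to 100%) and 43 of 43 CTC (91.8 to 100%) had a drop at Il1rapl1. Among line-level DP cells, 191 of 219 had one (87.2%, 82.1 to 91.3%). Neither WBC (0 of 46, up to 7.71%), naive WBC (0 of 21, up to 16.1%) nor raised-level DP cells (0 of 38, up to 9.25%) had any. Of the other DP cells, 7 of 16 at the highest level (43.8%, 19.8 to 70.1%) and 1 of 177 at the host level (0.565%, 0.0143 to 3.11%) had one. With the ceiling bins kept, 42 of 43 CTC and 172 of 219 line-level DP cells (78.5%) passed, and the line-level share was then 53.0% at a limit of 0.4 and 94.1% at 0.6. Over all genes tested and all cells, 0.477% of gene and cell pairs had a drop, and 5.28% with the ceiling bins kept. Il1rapl1 itself gave 293 of the 698 drops behind the 0.477%. Because Il1rapl1 was picked for its bin, these counts describe the spread of the drop over cells and are no test of it.

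The depth of the drop was not the same in every sample. Among line-level DP cells the sample mean of the second bin was lowest in C2R at 0.106 (34 cells, 0.00293 to 0.166) and highest in P4 at 0.2996 (10 cells, 0.233 to 0.571), so the cells of these 2 samples did not overlap. Between them lay C1R at 0.188, C1L at 0.188, C1N at 0.188, C3R at 0.215, P2 at 0.229 and P1 at 0.241, whose cells overlapped widely. C2R was the lowest sample in CTC too, at 0.127. The culture, at 0.0998, lay below every sample mean of CTC and of line-level DP cells. Of the 219 line-level DP cells, 52 (23.7%) lay above the highest CTC. These were 0 of 34 in C2R, 1 of 15 in C1R, 2 of 26 in C1L, 1 of 6 in C1N, 18 of 67 in C3R, 13 of 36 in P1, 10 of 25 in P2 and 7 of 10 in P4. Thus 30 of the 52 came from P1, P2 and P4, which held no CTC. The highest line-level value, 0.698, came from C3R, where the median was 0.198. What sets these cells apart was not tested.

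Raised-level DP cells stood between the line and the host. Their sample means in the second bin ran from 0.526 in C2R to 0.742 in P4, and their 38 cells from 0.3997 to 0.860. C2R was again the lowest and P4 the highest of the 8 samples. At the lower of the raised levels the median was 0.619 (29 cells) and at the upper 0.664 (9 cells), with ranges that overlapped. Host-level DP cells had a median of 1.06 (177 cells). The lowest of them, at 0.156, is a C1L cell whose autosomal median lies between the host and line levels, and the next sample minimum was 0.811. Among the 16 highest-level DP cells the values ran from 0.0854 to 0.535, and their deposited autosomal median of 9.59 lies close to the ceiling.

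The control classes with naive labels did not share the host value of about 1. PltLike cells had a median of 0.213 (0.110 to 0.427), which overlaps the line-level DP cells, and 21 of 24 had a focal drop, or 14 of 24 with ceiling bins kept. CDP cells had a median of 0.477 (0.339 to 0.686), with 0 of 18 having a drop. Duplike cells fell into 9 at the line level with a median of 0.181 (0.139 to 0.375) and 14 at the lower raised level with a median of 0.649 (0.387 to 0.754). No value of the 66 cells of these 3 classes reached the lowest naive WBC value of 0.755.

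**Figure D2:**
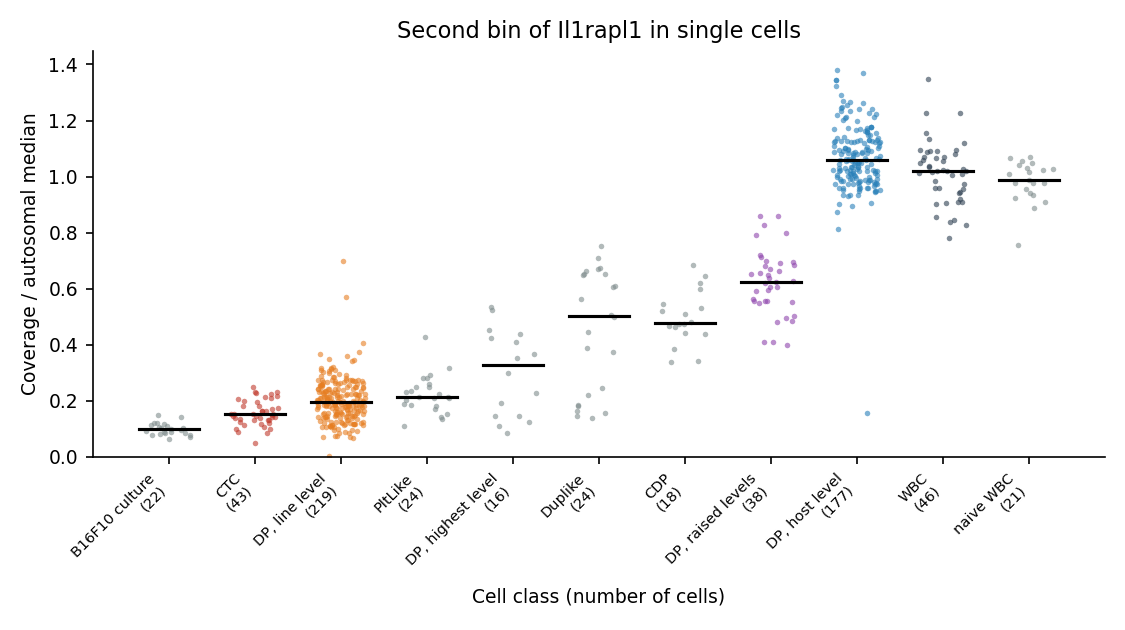
Coverage of the second Il1rapl1 bin relative to the autosomal median, 1 point per cell, with the median of each class as a line and the number of cells in brackets. Culture and CTC lie at or below 0.249, line-level DP and PltLike cells mostly below 0.4, raised-level DP cells between 0.3997 and 0.860, and WBC at or above 0.780, with 1 low cell among the host-level DP cells.

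To set all 9 genes on 1 scale, a focal value was computed per cell as the mean log2 value of the gene's bins minus that of its 6 flanking bins, with a pseudocount of 0.1. Class means per sample were compared with limma with the sample as a block, and p-values were adjusted by Benjamini-Hochberg over all 231 genes. Il1rapl1 was fixed by its choice and is left out of the counts that follow. In CTC minus WBC, 3 of the other 8 genes (Fhit, Macrod2 and Immp2l) were lower and 2 (Dmd and Lrp1b) higher at an adjusted p under 0.05, beside 18.6% and 23.4% of all genes called lower and higher. Without ceiling bins Fhit and Macrod2 were lower, beside 11.5% of 226 genes, and Dmd was higher, beside 10.6%, with flanks that then take in the bin on which Il1rapl1 was picked. The 5 samples allow no exact sign-flip p (two-sided) below 0.0625, which is what every gene with the same sign in 5 of 5 samples gave.

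**Figure D3:**
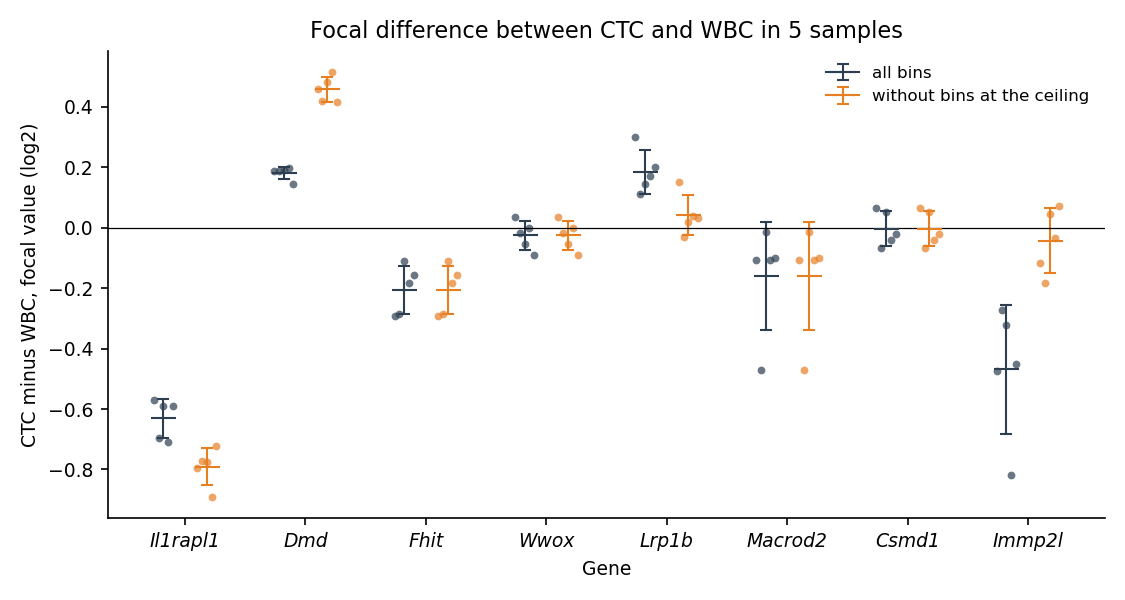
Focal difference (log2) between CTC and WBC at 8 genes, 1 point per sample (n = 5), with mean and SD, using all bins (dark) and leaving out bins at the ceiling (orange). Il1rapl1, Fhit and Macrod2 lie below 0 in every sample under both settings and Dmd above 0, while Immp2l and Lrp1b move to about 0 once ceiling bins are left out.

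Fhit, which encodes a diadenosine polyphosphate hydrolase and is a tumor suppressor candidate, lies on chromosome 14 from 9550092 to 11162061. Its 2 middle bins were lower than its outer bins and the nearest flanks in CTC, line-level DP cells and the culture. The farthest flank before the gene was itself low, at 0.614 in CTC and 0.566 in the culture. Over the whole gene the focal value of CTC was -0.17 in C1L, -0.23 in C1N, -0.17 in C1R, -0.16 in C2R and -0.15 in C3R, and that of WBC was 0.12, 0.06, -0.06, 0.02 and 0.01 in the same order. CTC were the lower class in 5 of 5 samples. The difference was -0.21 (SE 0.0351, limma, adjusted p = 0.00113), beside 18.6% of 231 genes called lower and 23.4% higher.

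The middle bins were low in CTC of every sample. The bin chr14:9597803-10145340 stood at 0.528 ± 0.0136 in CTC (SD, n = 5 samples) and at 0.938 ± 0.0615 in WBC, and the bin chr14:10145341-10700737 at 0.573 ± 0.0293 and 1.06 ± 0.0392. The outer bins of the gene stood at 0.779 and 0.797 over CTC, close to the nearest flanks at 0.822 and 0.790. The first outer bin lies mostly before the gene, and the low stretch starts shortly after the lower end of Fhit. The level of that bin therefore does not show that this end of the gene was kept at the level of the flanks. Chromosome 14 around Fhit was itself lower in CTC, with 6 of 6 flanking bins and 4 of 4 gene bins called lower at the level of bins, where 33.5% of 4714 bins were. Against the flanks, the middle bins differed by -0.41 (SE 0.0516, adjusted p = 2.92e-05) and -0.46 (SE 0.0389, adjusted p = 3.77e-07), and the outer bins by -0.04 (adjusted p = 0.601) and 0.09 (adjusted p = 0.169, all by limma). The -0.46 ranked the fifth and the -0.41 the sixth lowest of 545 bins. These single-bin tests were added after the bins had been seen.

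In the culture the middle bins stood at 0.562 and 0.585, and in line-level DP cells at 0.530 ± 0.0397 and 0.567 ± 0.0329 (SD, n = 8 samples). Host-level DP cells, at 0.871 ± 0.0525 and 0.980 ± 0.0540 (SD, n = 9), were near WBC. Raised-level DP cells stood at 0.652 ± 0.0358 and 0.740 ± 0.0543 (SD, n = 8), between the line and the host. Against the flanks, raised-level cells exceeded line-level cells of the same sample by 0.13 (SE 0.0277, limma, adjusted p = 0.00174) and 0.20 (SE 0.0281, limma, adjusted p = 2.29e-06), in 8 of 8 samples for each bin, beside 4.22% of 545 bins called higher. Over the whole gene the difference was 0.07 (SE 0.0207, limma, adjusted p = 0.0153). That call was lost in 6 of 25 alternatives, namely without C1L (adjusted p = 0.0524), with 5 or 10 flanking bins (0.129 and 0.109), against the flanks before the gene (0.133), with at least 5 cells (0.127) and in cells at or below the median noise (0.528).

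In single cells Fhit was less clear than Il1rapl1. The mean of its middle bins over the flanks, after division by naive WBC, had a median of 0.728 in CTC (0.446 to 0.967) and 1.00 in WBC (0.761 to 1.12). Of the 43 CTC, 30 lay below the lowest WBC, so the classes overlapped. Line-level DP cells had a median of 0.721, PltLike cells 0.672, CDP cells 0.834 and raised-level DP cells 0.836. Focal drops to 0.5 of the flanks were few, in 2 of 43 CTC, 12 of 219 line-level DP cells and 0 of 46 WBC. The line-level share of 5.48% was 0.457% at a limit of 0.4 of the flanks and 20.5% at 0.6.

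**Figure D4:**
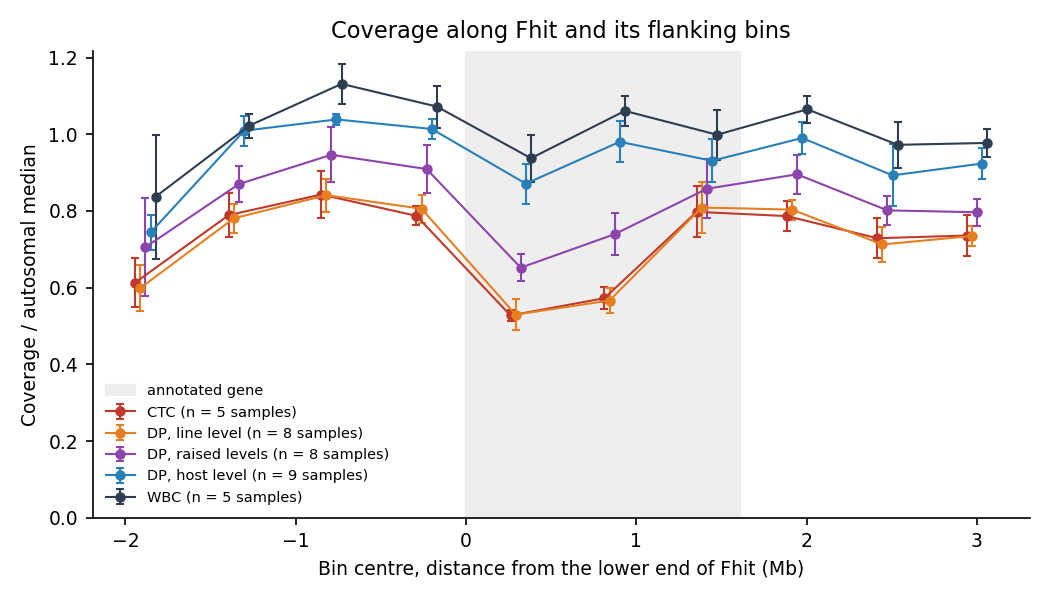
Mean coverage relative to the autosomal median in the 4 bins of Fhit and 3 flanking bins on each side, by distance of the bin centre from the lower end of the gene, with points for the mean over samples and bars for the SD. CTC and line-level DP cells dip to 0.528 and 0.530 in the second bin of the gene, raised-level DP cells to 0.652, while WBC and host-level DP cells stand at 0.938 and 0.871 there. In every class shown the first flanking bin is lower than the flanks next to it, with 0.837 in WBC and 0.744 in host-level DP cells.

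Wwox, another tumor suppressor candidate, encodes an oxidoreductase with WW domains and lies on chromosome 8 from 114439635 to 115352712. All 3 of its bins and all 6 flanks were lower in CTC than in WBC, with mean log2 differences of -0.47 in the gene and -0.45 in the flanks. The focal difference was accordingly near 0, from -0.09 in C3R to 0.04 in C1L, with an estimate of -0.03 (SE 0.0301, limma, adjusted p = 0.526). No cell of any class had a focal drop at Wwox by the count without ceiling bins.

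Lrp1b and Csmd1 encode large membrane proteins, a receptor of the LDL receptor family and a protein with complement control domains. Lrp1b lies on chromosome 2 from 40595290 to 42653598. Its focal value was higher in CTC than in WBC in 5 of 5 samples, by 0.11 in C1N to 0.30 in C1L, with an estimate of 0.19 (SE 0.0338, limma, adjusted p = 0.0017). A flanking bin at the ceiling in 79.6% of cells enters this value. Without ceiling bins the difference was 0.04 (SE 0.0308, limma, adjusted p = 0.335). Csmd1 lies on chromosome 8 from 15892538 to 17535385, and its focal difference ran from -0.07 in C1N to 0.06 in C1L, with an estimate of -0.00277 (SE 0.0314, limma, adjusted p = 0.956). The stretch of chromosome 8 around Csmd1 was not lower in CTC, with 0 of 4 gene bins and 0 of 6 flanking bins called lower, unlike that around Wwox on the same chromosome.

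Dmd encodes dystrophin, which ties the cytoskeleton to the muscle membrane, and lies on X from 82814664 to 85205050, before Il1rapl1 on the same chromosome. Relative to its flanks it was higher in CTC than in WBC with all flanks, without ceiling bins and against the flanks of either side. The focal value of CTC was 0.16 in C1L, 0.16 in C1N, 0.13 in C1R, 0.20 in C2R and 0.11 in C3R, and that of WBC was -0.03, -0.02, -0.06, 0.01 and -0.03. The difference was 0.18 (SE 0.0274, limma, adjusted p = 0.00062). Leaving out ceiling bins raised it to 0.46 (SE 0.0288), but the flanks after the gene then take in the low bin of Il1rapl1. Against the 3 bins before the gene only, it was 0.21 (SE 0.0333, limma, adjusted p = 0.000251), beside 11.1% of 226 genes called higher and 10.2% lower with such flanks. CTC stood at 0.630 and 0.642 in its bins chrX:83410984-83949430 and chrX:83949431-84506991 and at 0.582, 0.538 and 0.567 before the gene, and WBC at 0.980 and 0.989 against 1.15, 1.11 and 1.08. Dmd and Il1rapl1 share neighbouring bins and are not independent.

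Macrod2 encodes an ADP-ribosyl hydrolase and lies on chromosome 2 from 140395303 to 142392966. Its focal difference between CTC and WBC was -0.11 in C1L, -0.47 in C1N, -0.01 in C1R, -0.11 in C2R and -0.10 in C3R. C1N stood apart. The focal value of WBC there was 0.22, against -0.23 to 0.01 in the other samples. CTC ran from -0.25 to -0.10, with C1N at the low end. The estimate was -0.16 (SE 0.0571, limma, adjusted p = 0.0456, or 0.0837 without the sample as a block), and 12 of 21 alternatives lost the call, among them leaving out C1N (-0.08, adjusted p = 0.0775), C1L (adjusted p = 0.122), C1R (adjusted p = 0.0659) or C3R (adjusted p = 0.0731). The middle bins of the gene were lower in CTC by -0.21 (SE 0.0445, limma, adjusted p = 0.00374) and -0.25 (SE 0.0612, limma, adjusted p = 0.0124), and the outer bins did not pass. The culture stood at 0.855 and 0.963 in these 2 bins, and naive WBC at 1.08 and 1.09. No CTC had a focal drop, and 5 of 219 line-level DP cells did.

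Immp2l encodes a subunit of the mitochondrial inner membrane peptidase and lies on chromosome 12 from 41024061 to 41955588. Its focal difference between CTC and WBC was -0.47 (SE 0.0663, limma, adjusted p = 0.000418), negative in 5 of 5 samples. It rested on the first bin (chr12:40982204-41530999), which was very high in part of the host cells. In WBC 19 of 46 cells lay above 2 times the autosomal median, as did 37 of 177 host-level DP cells and 6 of 21 naive WBC, and the highest WBC stood at 5.81 times, where the deposited value is 10. No CTC, culture, PltLike, CDP, line-level or raised-level DP cell did so. The WBC mean of that bin was 4.55 in C2R, 2.86 in C3R, 2.30 in C1R, 1.90 in C1L and 1.71 in C1N, so C2R stood highest. The second bin stood at 0.766 in CTC and 1.02 in WBC, and its difference against the flanks was -0.04 (SE 0.0359, limma, adjusted p = 0.402). All 8 bins of gene and flanks were lower in CTC at the level of bins. The focal difference of Immp2l thus rests on high values of host cells at the first bin.

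**Figure D5:**
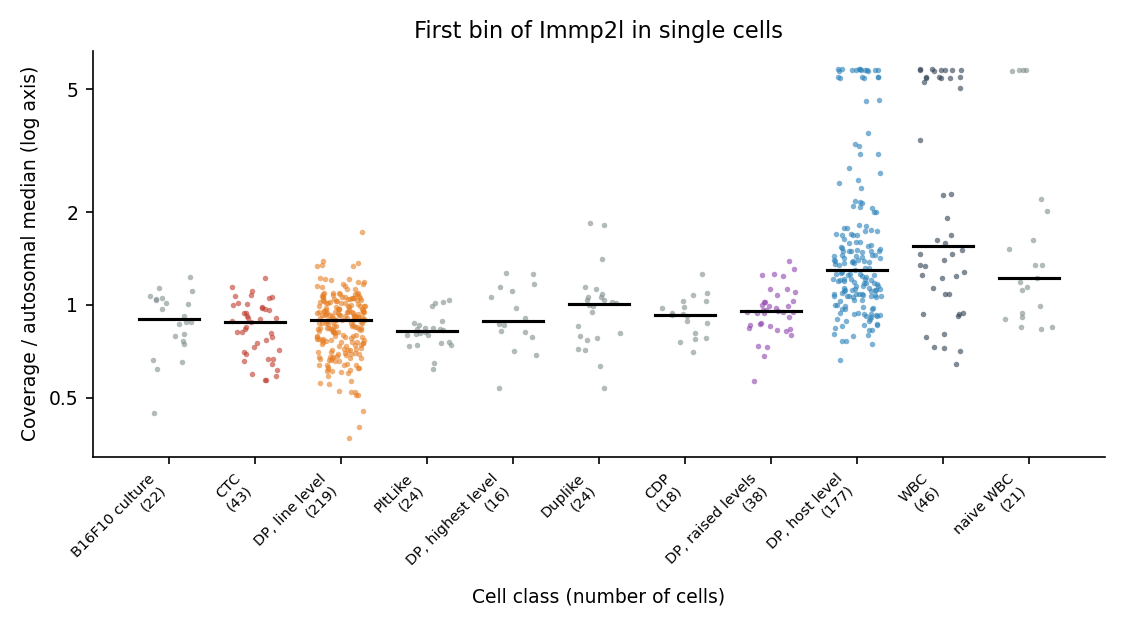
Coverage of the first Immp2l bin relative to the autosomal median (log axis), 1 point per cell, with the median of each class as a line and the number of cells in brackets. Values above 2 appear in host-level DP cells, WBC and naive WBC and reach 5.82, while the cells of the other classes stay below 2.

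DP cells of all levels were set against WBC, sample by sample. Apart from Il1rapl1, Immp2l was lower and Dmd and Lrp1b higher, beside 12.6% and 13.4% of 231 genes called lower and higher. Fhit differed by -0.12 (SE 0.0424, limma, adjusted p = 0.0672), and of its middle bins the second was lower (-0.29, SE 0.0658, limma, adjusted p = 0.027, beside 2.39% of 545 bins called lower, 2.94% higher and 5.32% in either direction) while the first did not pass (-0.24, SE 0.0645, limma, adjusted p = 0.0561). Without ceiling bins Immp2l and Lrp1b did not pass, beside 3.1% and 2.65% of 226 genes called lower and higher, and Dmd passed with flanks that take in the low bin of Il1rapl1. A sample's DP class holds both host-level and line-level cells, in shares that differ between samples, and the part of these shares was not tested. At Il1rapl1 the difference was -0.04 in C1R, with 35 host-level and 15 line-level cells, and -0.43 in C3R, with 8 and 67. The call at Dmd was lost in 5 of 22 alternatives, among them without C1L (limma, adjusted p = 0.0756) or C2R (limma, adjusted p = 0.0624). That at Immp2l was lost in 8 of 21, and that at Lrp1b in 8 of 22, with 2 more reversed.

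Line-level DP cells were compared with CTC to ask whether the sorted class changes the loci once the level is the same. P1, P2 and P4 held no CTC, so their line-level cells do not enter this comparison. No gene of the 231 passed, with 21 at an unadjusted p under 0.05 and none of the 9 among these (limma). The differences of the 9 genes ran from -0.05 at Csmd1 (SE 0.0276) to 0.04 at Il1rapl1 (SE 0.0296). The middle bins of Fhit differed by -0.00295 (SE 0.0418) and -0.03 (SE 0.0321). Differences of that size were within the spread between samples, which does not show that the classes are alike. Host-level DP cells against WBC gave no call either, with 32 of 231 genes and none of the 9 at an unadjusted p under 0.05 (limma). There the 9 genes ran from -0.08 at Immp2l (SE 0.0551) to 0.07 at Il1rapl1 (SE 0.0344).

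Raised-level against line-level DP cells was the comparison with 8 samples, where the smallest exact two-sided sign-flip p is 0.0078. Apart from Il1rapl1, Fhit and Lrp1b were higher and Dmd lower, beside 18.6% and 15.6% of 231 genes called higher and lower. At Il1rapl1 the focal value rose by 0.63 (SE 0.0347), from 0.42 in C1R to 0.86 in C2R, in 8 of 8 samples, given as a description. Its flanks keep 2 bins at the ceiling, and over 25 alternatives the rise ran from 0.397 to 0.981. Without ceiling bins the difference at Lrp1b was 0.00508 (limma, adjusted p = 0.905), while Fhit and Dmd still passed in the same direction, Dmd again with flanks that take in the low bin of Il1rapl1, beside 4.42% and 6.19% of 226 genes called higher and lower. At Dmd the difference was -0.11 against the 3 bins before the gene (SE 0.0247, limma, adjusted p = 0.0116, beside 5.75% of genes called lower), and with all flanks it was -0.08 (adjusted p = 0.00613, or 0.0604 without the sample as a block). Wwox, Macrod2, Csmd1 and Immp2l did not pass in either setting.

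Lung and blood DP cells were compared in 5 samples. No gene of the 231 passed (limma, 39 at an unadjusted p under 0.05, of which 3 of the 9). At Il1rapl1 lung exceeded blood by 0.56 in C1L, 0.23 in C1N, 0.45 in C1R and 0.56 in C2R, and lay below it by -0.20 in P1. The DP cells of P1 were 35 at the host level and 9 at the line level in blood, and 13 and 27 in lung. Those of C1R were 2 and 15 in blood, and lung held 33 host-level cells and no line-level one. The part of these shares in the differences was not tested. Without P1, 84 of 231 genes passed, and Fhit, Macrod2, Immp2l and Lrp1b were among them. Within the line level the second bin of Il1rapl1 stood at 0.203 ± 0.0576 in blood (SD, n = 7 samples) and 0.185 ± 0.0883 in lung (SD, n = 3), which overlap. The first of the middle pair of Fhit bins stood at 0.525 ± 0.0475 and 0.526 ± 0.00271. Only C2R and P1 held line-level cells in both tissues, so these means mix sample and tissue.

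Outside Il1rapl1, the count of focal drops in single cells depended on the ceiling bins. With these bins kept, 155 of 648 cells had a drop in any of the other 8 genes. This was 165 of 5184 gene and cell pairs (3.18%), beside 5.28% over all genes tested. The share was 11.2% in raised-level DP cells, beside 8.9%, and 2.34% in line-level DP cells, beside 6.83%. Most were at Dmd, with 34 of 38 raised-level, 22 of 219 line-level, 19 of 177 host-level and 2 of 16 highest-level DP cells. The others at Dmd were 15 of 18 CDP, 11 of 24 Duplike, 1 of 24 PltLike, 9 of 46 WBC, 7 of 21 naive WBC, 7 of 43 CTC and 5 of 22 culture cells. Without ceiling bins 32 of 648 cells had one. By that count Fhit had 23 cells, Macrod2 6, Dmd 3, Lrp1b 2 and Csmd1 2. The 23 Fhit cells were 12 line-level and 2 highest-level DP cells, 5 PltLike cells, 2 CTC, 1 Duplike and 1 culture cell, and 5 of the 12 line-level cells came from C1L. The 6 Macrod2 cells were 5 line-level DP cells, 2 of them from P2, and 1 highest-level cell. Cells with a drop had a median noise of 0.222 against 0.191 in the other 616 cells, and the part of noise in these counts was not tested. By class, all genes tested, with Il1rapl1 among them, had a drop in 0.607% of CTC pairs, 0.725% of line-level DP pairs, 0.292% of host-level DP pairs and 0.164% of WBC pairs. Il1rapl1 alone gave 43 of the 59 drops in CTC and 191 of the 359 in line-level DP cells. In host-level DP cells it gave 1 of 117, and in WBC 0 of 17.

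Another 24 large fragile-site genes were set beside the 9. In CTC minus WBC 7 were lower and 5 higher with all bins, beside 18.6% and 23.4% of all genes, and 9 lower and 4 higher without ceiling bins, beside 11.5% and 10.6%, with a median of -0.03 in the second setting beside 0.00132 over all genes. Lower by limma were Pde4d, a cyclic AMP phosphodiesterase (-0.31, SE 0.0352), Pcdh15, a protocadherin (-0.33, SE 0.054), Ccser1 (-0.28, SE 0.0446) and Magi2, a synaptic scaffold protein (-0.27, SE 0.0461). Sgcz, a sarcoglycan (0.30, SE 0.0377), and Ptprd, a receptor tyrosine phosphatase (0.16, SE 0.0354), were higher. The adjusted p-values of these 6 ran from 9.15e-05 to 0.00557.

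The genes whose focal values were most like those of Il1rapl1 were Magi2 (Pearson r = 0.88), Trpm3, a cation channel (0.851), and Pde4d (0.823), over 24 class means of samples and 217 candidate genes that share no bin with the 9. The class means share samples and sorted classes, and these r carry no test.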

How the data were processed

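Single cells were sorted and their genomes amplified by MALBAC, per the labels' protocols. The submitters' processing notes name mm10, Trim Galore, BWA, Picard and SAMtools, with no role or order. The authors deposited a normalised coverage signal per bin and cell, and its normalisation is not given in the sources used here. Depth is unknown, so no interval covers counting of reads.

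For coverage levels each cell was divided by its autosomal median. Genes of at least 500 kb were compared with 3 flanking bins on each side on log2(signal + 0.1) of the undivided signal. The 0.1 thus weighs more in WBC, with a median autosomal signal of 1.82, than in CTC, with 3.72. Classes with at least 3 cells per sample entered the fit, or at least 1 for raised-level against line-level DP cells. Differences between sample means were tested with limma (3.58.1, R 4.3.3) with the sample as a block and Benjamini-Hochberg adjustment over all genes, and with an exact two-sided sign-flip test. The sample label joins classes of 1 sample, and the deviations of CTC and WBC over genes correlated by -0.142 to 0.555 within it. Tests of single bins against their flanks were added after values were seen. Drops were counted at or below 0.5 of the flank median, with Clopper-Pearson 95% intervals that cover the number of cells only. The scripts, run in Python 3.11.15 with numpy 2.4.6 and pandas 2.3.3, were tested on simulated data.

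The members and lists were chosen with earlier results of these data known. Named were the members, up to 6 genes of another fragile-site list by adjusted p, and the 3 genes most correlated with Il1rapl1. Alternatives covered flanks, pseudocount, noise, cell minimum, ceiling, gene length and each sample left out. The values of 1 of the 9 members are not reported here.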

Additional observations from a re-analysis of the deposited data

Results flagged for a closer look

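Of 54 groups of samples, 7 held a sample far from the others by Dixon's limit, where chance flags about 1 in 20 groups. The sample C1N lay apart at Macrod2, with -0.47 in CTC minus WBC and 0.0851 in line-level DP minus CTC. C3R lay apart at Dmd, with 0.14 in CTC minus WBC and -0.0741 in host-level DP minus WBC. At Immp2l, C2R stood at -0.37 in host-level DP minus WBC. P1 lay apart in lung minus blood DP, with 0.0720 at Lrp1b and -0.0871 at Immp2l.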

How the results depend on the processing

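Of the 231 genes, 97 passed in CTC minus WBC, 60 in DP minus WBC and 79 in raised-level minus line-level DP. In that order the counts were 27, 7 and 21 with the lowest bin and the median of the flanks, 50, 13 and 24 without ceiling bins, 48, 21 and 23 against the flanks before the gene, and 56, 14 and 21 against those after it. They were 233, 159 and 180 of 749 genes of at least 250 kb, and 38, 24 and 28 of 63 genes of at least 1 Mb. With at least 5 cells per class and sample, 14 passed in DP minus WBC and 41 in raised-level minus line-level DP, and with at least 1 cell 0 passed in DP minus WBC (limma). Leaving out 1 sample at a time gave 73 to 102, 14 to 79 (14 without C1L, 25 without C2R, 21 without C3R) and 66 to 80. For host-level DP minus WBC the count of 0 became 3 in cells at or below the median noise, 11 in blood only and 8 without C1R (0 to 8), and for lung minus blood DP it became 84 without P1 (0 to 84). Without the sample as a replicate block 85, 55 and 59 genes passed in the first 3 comparisons.

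Lrp1b reversed to -0.0449 in CTC minus WBC and -0.0340 in DP minus WBC with the lowest bin and the median of the flanks, to -0.00318 in DP minus WBC against the flanks after the gene, and to -0.0298 in raised-level minus line-level DP against those before it. The share of CTC with a drop at Il1rapl1 was 97.7% with ceiling bins kept, 83.7% at a limit of 0.4, and 100% at 0.6, without division by naive WBC, in the 29 cells at or below the median noise, and without ceiling bins. Over the same alternatives the share of line-level DP cells ran from 53.0% to 94.1% at Il1rapl1 and from 0.457% to 20.5% at Fhit. The cause of these changes was not tested. In CTC minus WBC, Dmd and Fhit kept their direction and side of the threshold in all 21 alternatives. For Dmd, alternatives with more flanking bins, without ceiling bins or against the flanks after the gene take in the low bin of Il1rapl1. A low flank in CTC raises the difference at Dmd, so these alternatives are no check of its direction. One-sided flanks, single bins and drops without ceiling bins were added after seeing the data. Bins of 539 kb limit what size of loss can be seen, and noise limits the counts of drops in single cells.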
